A study of Mus musculus with 12 samples.

Results

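Transcript levels of 10 transcription factors of the lung epithelium (Nkx2-1, Foxa1, Foxa2, Cebpa, Gata6, Sox9, Sox2, Etv5, Id2 and Foxp2) were followed through late gestation and birth by the genotype of the mother, and in the liver by the genotype of the mouse. They are 10 of the 17097 genes that the probe sets of the arrays name. A gene was read from its probe sets that carry its symbol and no other, and in each tissue the brightest of these stood for it. The values came from 12 mouse Affymetrix PM plate arrays of C57BL/6 animals, 6 of lung and 6 of liver, in a study of why the newborns of mothers without Abcb11, the bile salt export pump of the hepatocyte, die with collapsed lungs.

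Every lung was from an Abcb11+/- offspring, so the offspring carried the same Abcb11 genotype and the mothers differed. With a WT mother the father was Abcb11-/-, and with an Abcb11-/- mother the father was WT. There was 1 lung array for each mother at embryonic day 17.5 (E17.5), E18.5 and neonatal day 0 (N0). A legend on expression in these lungs, which also names real-time Q-PCR in triplicate, gives n = 3 for E18.5 and N0. Whether that n is of the arrays, and whether an array holds 1 animal or pooled RNA, is not stated. The livers were from 1.5-month-old female mice, 3 WT and 3 Abcb11-/-. Signal of Abcb11 itself was 11.05 ± 0.17 on the log2 scale in WT livers (SD, n = 3) and 3.10 ± 0.18 in Abcb11-/- livers (SD, n = 3). The median log2 signal lay between 3.63 and 3.68 on the lung arrays and between 3.15 and 3.18 on those of the liver. Since the array medians differed between the tissues, no level was compared across them. None was compared between genes, since probe sets differ in brightness.

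The epithelium of the lung grows from a foregut bud that branches into a tree of airways ending in alveoli. NKX2-1 marks the lung field in the foregut endoderm, and with the FOXA, GATA6 and CEBPA proteins it drives the genes of surfactant, the lipid and protein film made by type II cells that keeps alveoli open at the first breath. While the tree branches, cells of the distal tips carry SOX9, ID2, ETV5 and FOXP2, and cells left behind in the stalks turn on SOX2 and form the conducting airways. Before birth the tips give way to type I cells, across which gas is exchanged, and type II cells. FOXA1, FOXA2, CEBPA and GATA6 also work in the liver, which arises from neighbouring foregut endoderm, SOX9 marks the cells of bile ducts, and ID2 is made in many tissues.

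Promoter sequence (mouse RefSeq, build GRCm38.p6, the 250 bases before each annotated start) was at hand for 7 of the 10 genes with 10 starts in all. The forkhead motif TGTTTAC, to which the FOXA and FOXP proteins bind, was searched on both strands and stood in 2 of the 10 windows, 1 of Foxa1 and 1 of Etv5, against 3.17% of all 32851 windows of this length. It began 141 bases before the start of Foxa1 and 183 before that of Etv5, and in both it reads GTAAACA on the strand printed here. The TATA box motif TATAAA stood in a window of Cebpa, 30 bases before the start, and in a window of Foxa2, against 12.4% of all windows. The motif CCAAT was in 6 of the 10 windows (33.8% of all windows) and the NKX2-1 core CTNAAG in 3 of the 10 (40% of all windows). Also searched were motifs of SOX (ACAAAG, 3 of the 10 against 16.5%) and GATA factors (AGATAA, 1 against 9.99%). Those of CEBP (TTGCNNAA) and ETS factors (CCGGAAG) were in 1 (9.56% of all windows) and 0 (6.91%). A match describes these letters and is not evidence of binding. Of these windows the forkhead pair and that of Cebpa, which differed between the E17.5 arrays, are printed 5′ to 3′ with the motif in capitals.
Foxa1, chr12:57546112-57546361, minus strand: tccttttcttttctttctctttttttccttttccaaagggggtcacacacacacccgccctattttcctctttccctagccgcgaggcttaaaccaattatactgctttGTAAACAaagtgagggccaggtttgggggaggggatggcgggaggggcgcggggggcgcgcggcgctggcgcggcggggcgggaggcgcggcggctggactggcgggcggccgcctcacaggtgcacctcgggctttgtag
Etv5, chr16:22439571-22439820, minus strand: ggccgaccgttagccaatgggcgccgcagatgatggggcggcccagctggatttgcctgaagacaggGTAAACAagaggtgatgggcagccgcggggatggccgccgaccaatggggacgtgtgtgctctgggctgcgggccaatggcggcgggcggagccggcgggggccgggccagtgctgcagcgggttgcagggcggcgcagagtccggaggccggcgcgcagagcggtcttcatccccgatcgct
Cebpa, chr7:35119043-35119292, plus strand: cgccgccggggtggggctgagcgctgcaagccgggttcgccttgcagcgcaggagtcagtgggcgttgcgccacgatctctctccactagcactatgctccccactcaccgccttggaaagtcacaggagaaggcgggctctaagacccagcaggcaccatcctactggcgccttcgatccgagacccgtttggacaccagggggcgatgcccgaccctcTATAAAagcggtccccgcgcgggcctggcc

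Of the factors named above as drivers of surfactant genes, Foxa1, Foxa2 and Gata6 spanned 0.27 to 0.60 on the log2 scale over the 6 lung arrays. Cebpa spanned 0.97, while Nkx2-1 was too dim to follow. Foxa1, a pioneer factor that opens chromatin in foregut tissues, had log2 values of 9.49 and 9.73 at E17.5, 9.49 and 9.56 at E18.5, and 9.13 and 9.43 at N0, in each pair first with a WT and then with an Abcb11-/- mother. The array of the Abcb11-/- mother was the higher at each stage, by 0.24, 0.07 and 0.30. Foxa2, its close relative, was at 8.28 and 8.59, 8.29 and 8.11, and 8.60 and 8.28 in the same order. The sign of its difference turned between stages, from 0.31 at E17.5 to -0.17 at E18.5 and -0.32 at N0. Gata6, a zinc-finger factor of the distal epithelium that mesenchyme and heart also make, was at 9.20 and 9.27, 9.0 and 9.12, and 9.05 and 9.03. Its whole span was 0.27, the narrowest of the 10 genes. Its dimmer probe set spanned more, from 7.28 at E17.5 to 6.58 at N0 with a WT mother and from 7.05 to 6.75 with an Abcb11-/- mother.

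Cebpa, a leucine zipper factor required for type II cells to mature, gave 7.98 (WT mother) and 8.71 (Abcb11-/- mother) at E17.5, 8.81 and 8.96 a day later, and 8.75 and 8.76 at N0. The E17.5 array of the WT mother lay 0.72 or more below the other 5, which spanned 8.71 to 8.96. With a WT mother the level was 0.83 higher at E18.5 than at E17.5, and with an Abcb11-/- mother 0.25 higher. Nkx2-1 was read by a single probe set, which was dim on every lung array, at 3.67 and 3.58, 3.53 and 3.71, and 3.82 and 3.23. Those values lie around the array medians, and 34.6% of all genes had a lower mean over the lung arrays. The level of Nkx2-1 in the liver, where the gene is not expected to be made, was 2.86 ± 0.29 (SD, n = 3) in WT mice on the liver's own scale, so this probe set gives little hold on Nkx2-1 in either tissue.

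**Figure D1:**
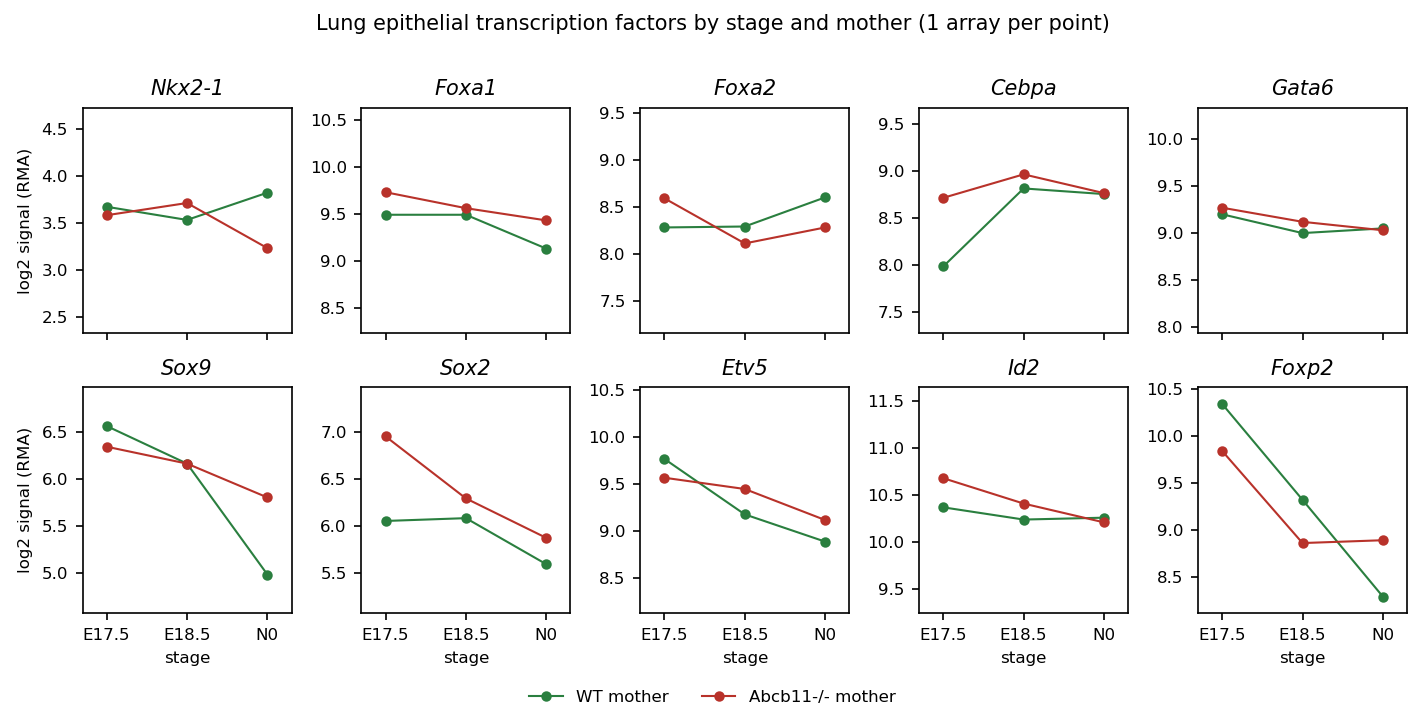
Log2 signal of the 10 genes on the 6 lung arrays, 1 array per point, by stage (x axis), with a WT mother in green and an Abcb11-/- mother in red. Each vertical axis spans 2.4 log2 units. Foxp2, Sox9, Sox2, Etv5, Foxa1, Id2 and Gata6 were lower at N0 than at E17.5 with either mother. Cebpa was lowest on the E17.5 array of the WT mother, and Gata6 spanned 0.27.

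Of the 4 factors of the distal tips, Foxp2 was furthest apart between E17.5 and birth and the 1 that passed the test. Foxp2, a forkhead repressor of the distal epithelium, gave 10.34 (WT mother) and 9.84 (Abcb11-/- mother) at E17.5, 9.32 and 8.86 a day later, and 8.29 and 8.89 at N0. With a WT mother it was lower by a similar step at each stage, -1.01 and then -1.03. With an Abcb11-/- mother the first step was -0.99 and the second 0.03. Sox9, an HMG-box factor of the tip progenitors that cartilage also makes, was at 6.56 and 6.34, 6.16 and 6.16, and 4.98 and 5.80. Its widest step was between E18.5 and N0 with a WT mother, -1.18, against -0.35 with an Abcb11-/- mother.

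Etv5, an ETS factor turned on by FGF signals at the tips, was at 9.77 and 9.57, 9.18 and 9.45, and 8.89 and 9.12. It was lower at each later stage with either mother. Id2, an inhibitor of helix-loop-helix factors that marks the tips, was at 10.37 and 10.68, 10.24 and 10.41, and 10.26 and 10.21, a span of 0.47. Sox2, the factor of the conducting airways, was at 6.05 and 6.95, 6.08 and 6.29, and 5.59 and 5.87. The E17.5 value with an Abcb11-/- mother stood 0.66 above the next highest of its arrays, and both N0 arrays were its lowest.

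The additive limma model over all 6 lung arrays, with terms for stage and mother and 2 residual degrees of freedom, tested these steps. It treats the mothers as replicates of a stage and assumes that all arrays vary alike. From E17.5 to N0 it called 1 of the 10 genes lower and none higher, where 2.83% of all genes were called lower and 3.06% higher. The gene was Foxp2, which fell by 1.50 (SE 0.29, limma adjusted p = 0.0434), a 2.83-fold decrease. Foxp2 was lower by 2.04 with a WT mother and by 0.96 with an Abcb11-/- mother. For Sox9 the difference was -1.06 (SE 0.26, limma adjusted p = 0.0732), for Sox2 -0.77 (SE 0.20, 0.0850) and for Etv5 -0.66 (SE 0.17, 0.0777), all negative with either mother and none called. With Foxp2 these made 4 of the 10 at an unadjusted p under 0.05, against 24.6% of all genes. The other genes had differences of -0.33 (Foxa1), -0.29 (Id2), -0.19 (Gata6), -0.10 (Nkx2-1), 0.01 (Foxa2) and 0.41 (Cebpa), with limma adjusted p from 0.207 to 0.992. Foxa1, Id2 and Gata6 were also lower with either mother. The median difference of the 10 genes was -0.31, against 0.00 over all genes.

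**Figure D2:**
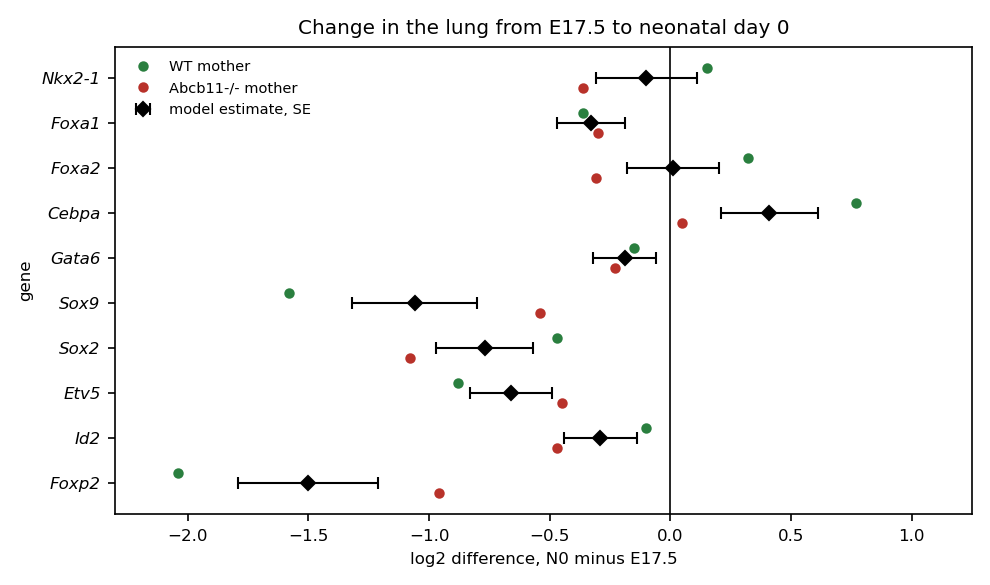
Log2 difference between N0 and E17.5 for each gene, with the estimate of the limma model and its SE in black and the difference between the arrays of each mother as a dot (green WT, red Abcb11-/-). The Foxp2 estimate is -1.50, with -2.04 and -0.96 for the mothers, and Foxa2, Nkx2-1 and Cebpa lie nearest to 0 or above it.

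A fit without an array has 1 residual degree of freedom in place of 2, so it has less power for every gene. Without either E18.5 array the Foxp2 difference stayed at -1.50. It was -1.22 without the E17.5 array of the WT mother and -0.96 without the N0 array of the WT mother. The Foxp2 call did not hold in all such fits. It was lost without the E17.5 array of the WT mother (limma adjusted p = 0.145), without either E18.5 array (0.0686 each) and without the N0 array of the WT mother (0.133), and over all 11 alternatives the adjusted p for Foxp2 ran from 0.0240 to 0.145, with the difference below 0 in each. Without the E17.5 array for the Abcb11-/- mother, Sox9 (0.0456) and Etv5 (0.0456) were called as well, and without the N0 array of the Abcb11-/- mother Sox9 was (0.0326). For Sox2 the difference was -1.1 without the E17.5 array of the WT mother and -0.45 without that of the Abcb11-/- mother. The latter array also had raised hepatocyte and skeletal muscle transcripts. Among genes with a mean of at least 6 on the log2 scale, Foxp2, Sox9, Sox2 and Etv5 were all called. With that filter 1446 of about 7221 genes were called in either direction, against 1008 of 17097 without it.

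No member was called between E18.5 and E17.5, where 0.0526% of all genes were called higher and 0.00585% lower. The differences of Foxp2 (-1.0, SE 0.29, limma adjusted p = 0.259) and Cebpa (0.54, SE 0.20, 0.359) were the 2 at an unadjusted p under 0.05. Between N0 and E18.5 limma called none of the 10 genes and none of all 17097 (2098, or 12.3%, at an unadjusted p under 0.05). Sox9 was the 1 member there at an unadjusted p under 0.05 (-0.77, SE 0.26, limma adjusted p = 0.349).

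Other probe sets of the same genes bear on these profiles. Foxp2 has 5 probe sets, and all 5 were lower at N0 than at E17.5, by 1.01 to 2.94 with a WT mother and by 0.76 to 1.51 with an Abcb11-/- mother. Sox9 has 3. The brighter pair ran alike, the dimmer of them at 6.4 and 5.90, 5.46 and 5.84, and 4.08 and 5.30, and the last stayed between 2.98 and 3.19 on all 6 arrays. The probe sets of a gene share the RNA of an array, so they check the probe and not the animals. Etv5 has 1 probe set of its own, and 2 more that carry a further gene symbol were not used.

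**Figure D3:**
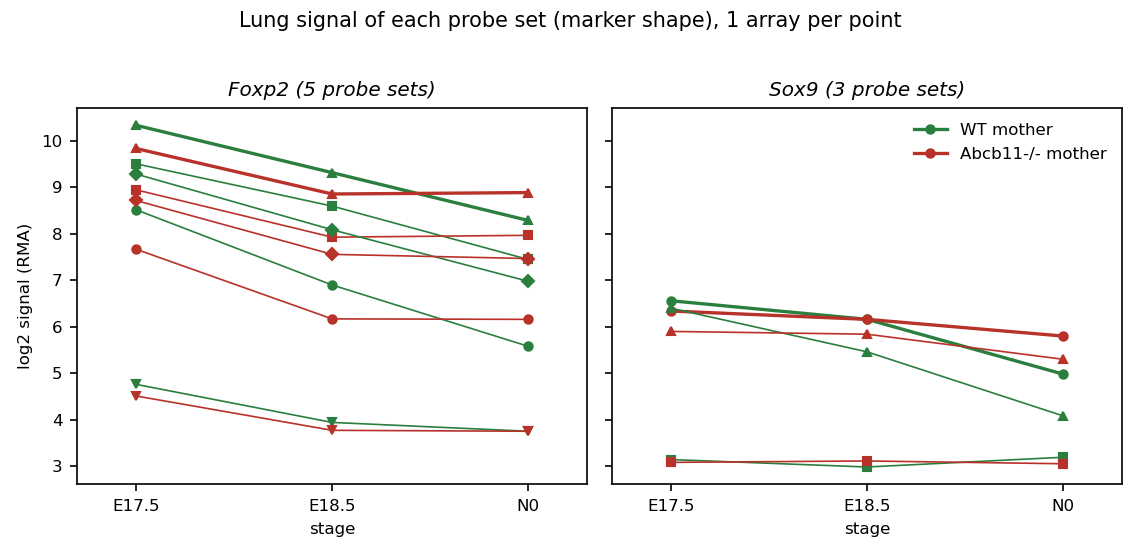
Log2 signal of each probe set of Foxp2 (5) and Sox9 (3) on the 6 lung arrays by stage, 1 array per point, with a marker shape per probe set, the one used for the gene drawn thick, a WT mother in green and an Abcb11-/- mother in red. All Foxp2 probe sets were lower at N0 than at E17.5, and 1 of the Sox9 probe sets stayed near 3.

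By the mother's genotype the genes differed at a few points, each a comparison of 1 array with 1 array and so without a replicate check. At E17.5, 2 of the 10 passed 1.5-fold upward on the Abcb11-/- side (3.47% of all genes did) and none passed it downward (3.55%). They were Sox2, 1.86-fold apart with a log2 difference of 0.90, and Cebpa, at 0.72. Id2 (0.32), Foxa2 (0.31) and Foxa1 (0.24) were within 1.5-fold, and Foxp2 was at -0.50. Transcripts of other tissues were raised on this E17.5 array. Among 13 hepatocyte genes 12 passed 1.5-fold upward there (median log2 level 9.98 against 4.58, with albumin, Alb, at 13.01 against 9.05), as were 10 of 11 skeletal muscle genes (8.50 against 3.30). Heart muscle genes had a median difference of -0.79 and cell cycle genes of -0.63. The part of these in the Cebpa and Sox2 differences was not tested. Cebpa, Foxa1, Foxa2 and Gata6 are made in the liver as well. Of 18 other hepatocyte transcription factors, 3 passed 1.5-fold upward on this array (median difference 0.16). They were Hnf4a (1.89, at 4.86 against 2.97), Atf5 (0.82) and the dim Foxa3 (0.59, at 3.46 against 2.86).

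At E18.5 none of the 10 genes was 1.5-fold apart, where 2.13% of all genes were higher and 1.26% lower with an Abcb11-/- mother. The widest difference was that of Foxp2, -0.47, followed by Etv5 at 0.26. Sox9 had the same value, 6.16, with either mother. At this stage the hepatocyte genes differed by a median of 0.05, the epithelial genes by 0.00 and the cell cycle genes by 0.13. Of 11 epithelial marker genes such as Cdh1 and Epcam, none was 1.5-fold apart.

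At N0, 2 of the 10 passed 1.5-fold upward with an Abcb11-/- mother (4.16% of all genes did) and 1 passed it downward (2.88%). Sox9 was 0.82 higher, at 5.80 against 4.98, and its other bright probe set 1.22 higher. Foxp2 was 0.59 higher, at 8.89 against 8.29, just past the 1.5-fold line, and its other probe sets differed by 0.00 to 0.57. Nkx2-1 was 0.60 lower, between dim values. Foxa2 was at -0.32, Foxa1 at 0.30, Sox2 at 0.28 and Etv5 at 0.24, and Gata6, Cebpa and Id2 were within 0.05. On the same pair of arrays 2 of the 11 epithelial marker genes were lower with an Abcb11-/- mother (median difference -0.28), led by the tight junction gene Cldn4 at -1.0. Of 11 heart muscle genes 6 were higher (median 0.59), of 8 neutrophil genes 5 were lower (-0.68), and of 14 cartilage genes, a tissue that makes Sox9, 3 were higher (0.21), with Col2a1 at 4.20 against 2.91. Their part in the Sox9 and Foxp2 differences was not tested. In RNA of whole tissue, fewer cells of a type and less RNA per cell cannot be told apart.

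**Figure D4:**
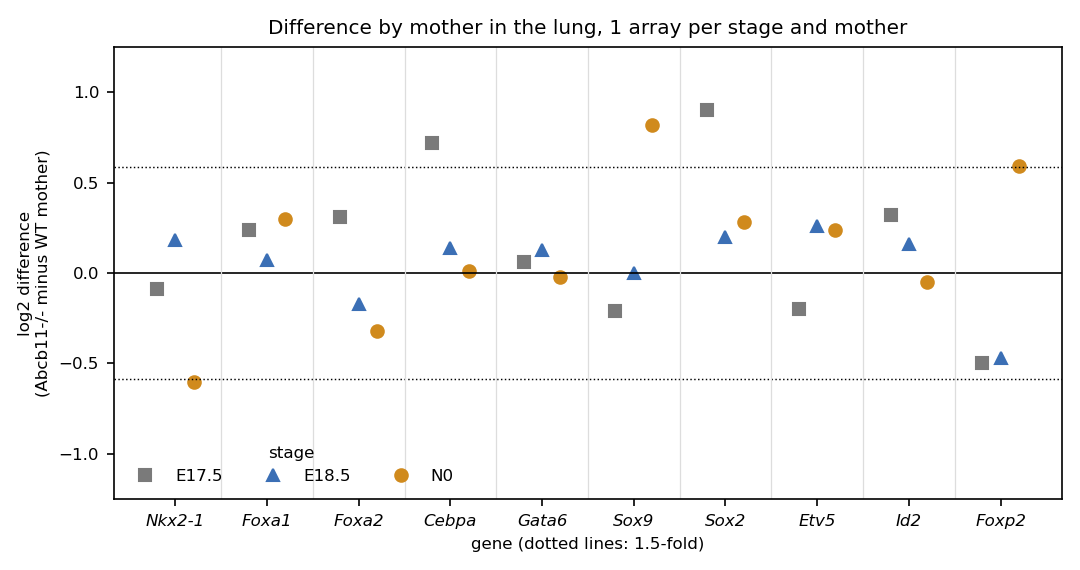
Log2 difference of each gene between the lung array of the Abcb11-/- mother and that of the WT mother at E17.5 (square), E18.5 (triangle) and N0 (circle). Dotted lines mark 1.5-fold. Sox2 and Cebpa at E17.5 and Sox9 at N0 lie beyond the upper line, Foxp2 and Nkx2-1 at N0 lie on the lines, and no E18.5 value passes them.

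Over the 3 stages together, limma called none of the 10 genes by mother and none of all 17097 (867, or 5.07%, at an unadjusted p under 0.05). Sox2 came nearest. It was higher with an Abcb11-/- mother at each of the 3 stages, by 0.46 on average (SE 0.17, unadjusted p = 0.0336, adjusted p = 0.926). Foxa1 was also higher at all 3 stages (0.20, SE 0.11, adjusted p = 0.926), and so was Cebpa (0.29, SE 0.17, 0.926). The remaining 7 had differences from -0.17 (Nkx2-1) to 0.20 (Sox9). Without the E17.5 arrays the Sox2 difference was 0.24 (adjusted p = 0.818) and the Cebpa difference 0.07 (0.958).

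Surfactant and other genes of type II cells are among those that these factors switch on. Over all genes, 3.06% were called higher from E17.5 to N0 and 2.83% lower, shares that apply to each list below. Of 12 type II cell genes measured, limma called 3 higher from E17.5 to N0 and none lower. They were Chil1, a chitinase-like protein (4.58, SE 0.33, adjusted p = 0.00898), Sftpd, surfactant protein D (2.14, SE 0.41, 0.0434), and Lyz2, lysozyme (2.02, SE 0.18, 0.0120). Their median difference was 0.32. By mother, 6 of the 12 passed 1.5-fold upward on the Abcb11-/- side at E17.5 (3.47% of all genes did), with a median of 0.54. Sftpd was at 10.43 against 9.02, on the same array as the hepatocyte and muscle transcripts. At E18.5 and N0 1 was higher at each, Chil1. Lyz2 is made by macrophages too, and 2 of 10 macrophage genes were higher at E17.5.

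Of 9 measured genes of type I cells, 3 were called higher from E17.5 to N0, the water channel Aqp5 (2.34, SE 0.34, limma adjusted p = 0.0274), Gprc5a (1.01, SE 0.17, 0.0332) and Clic5 (0.87, SE 0.18, 0.0492), and Igfbp2, a growth factor carrier, was called lower (-2.18, SE 0.17, 0.00968). Of 10 airway genes, which lie in the territory of Sox2, the club cell secretoglobin Scgb1a1 was called higher (2.58, SE 0.52, limma adjusted p = 0.0490) and the basal keratin Krt15 lower (-1.20, SE 0.21, 0.0341). By mother, 2 of the 10 passed 1.5-fold upward and 2 downward at E17.5, 2 downward at E18.5, and 1 upward and 2 downward at N0. Scgb1a1 (9.05 against 11.00) and Aqp5 (7.35 against 8.49) both differed in favour of the Abcb11-/- mother at that first stage, on the array with the hepatocyte and muscle transcripts. None of the 11 epithelial marker genes was called (median difference 0.15).

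Among 15 signals and targets of the distal tips, Shh, the hedgehog ligand of the epithelium, was the 1 called lower from E17.5 to N0 (-0.90, SE 0.16, limma adjusted p = 0.0388), though it was dim (3.97 to 2.85), and the median difference was -0.43. None was 1.5-fold apart by mother at E17.5, and at E18.5 Dusp6, a phosphatase induced by FGF signals, was 0.75 higher with an Abcb11-/- mother. At N0, 3 of the 15 were higher, the mesenchymal ligands Wnt2 (0.92) and Fgf10 (0.88) and the FGF feedback inhibitor Spry4 (0.63). Of 9 fibroblast genes 2 were also higher on that array, Lum (2.35) and Dcn (1.37), with a median of 0.30 over the list. Their part in the ligand differences was not tested.

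Of 29 other transcription factors of the lung epithelium, limma called 2 higher and 3 lower from E17.5 to N0, against 3.06% and 2.83% of all genes. Cebpd, a relative of Cebpa, rose by 0.94 (SE 0.19, adjusted p = 0.0461) and Sox17, which endothelium makes as well, by 0.78 (SE 0.14, 0.0384). Mycn, which drives growth of the tips, fell by 2.04 (SE 0.29, limma adjusted p = 0.0244), Klf5 by 0.80 (SE 0.16, 0.0485) and Sox11 by 0.67 (SE 0.14, 0.0490). Klf5 was dim, between 4.71 and 3.82. The median difference of the 29 was -0.06. Foxp1, a relative of Foxp2, was at 0.61 (adjusted p = 0.0912) and Foxp4 at 0.28 (0.350), so neither was called. By mother, 2 of the 29 passed 1.5-fold upward and 2 downward at E17.5, 2 upward at E18.5 and 3 upward at N0, led by Mycn (-0.91), Trp63 (0.74) and Elf3 (0.98) respectively. Trp63 was dim at E18.5, at 4.14 against 3.4.

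Cell cycle genes were lower at N0 in the same comparison as Foxp2. Of 13, limma called 12 lower from E17.5 to N0, with a median difference of -1.84, for example Mki67 at -1.56 (SE 0.24, adjusted p = 0.0283) and Aurka at -2.35 (SE 0.27, 0.0182). Whether the falls in Foxp2 and in these genes are linked was not tested. For the 3 members that spanned at least 1 log2 unit over the lung arrays, the genes with the nearest profile were sought among 7221 genes of a mean log2 value of at least 6, by the root mean square difference of the centred log2 values over the 6 arrays. They were Anln (0.12), E2f8 (0.14) and Ube2c (0.15) for Foxp2, Fras1 (0.05), Taf5 (0.05) and Mif (0.07) for Sox9, and Brwd1 (0.14), Dhrs7b (0.15) and Grhpr (0.15) for Sox2. Fras1 was at 8.20 and 7.97 at E17.5, 7.81 and 7.91 at E18.5, and 6.73 and 7.53 at N0, which follows the order of the Sox9 arrays at E17.5 and N0.

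In the liver, 2 of the 10 genes were higher in Abcb11-/- mice by limma (4.33% of all genes) and 1 was lower (2.91%). Id2 was at 10.16, 10.15 and 10.21 in WT mice and at 10.79, 10.63 and 11.30 in Abcb11-/- mice. It rose by 0.73 (SE 0.17, limma adjusted p = 0.0409), 1.66-fold. Sox9 was at 3.14, 2.98 and 2.90 in WT and at 4.15, 3.58 and 4.75 in Abcb11-/- mice. Every Abcb11-/- value was above the WT values, and the difference was 1.15 (SE 0.26, limma adjusted p = 0.0415). The WT values lay at or below the array medians, where signal cannot be told from background, so the size of this rise is not well set. Foxp2 was at 6.5, 6.71 and 6.27 in WT and at 5.72, 5.81 and 5.97 in Abcb11-/- mice, and fell by 0.66 (SE 0.13, limma adjusted p = 0.0253). Groups did not overlap for these 3 and for Cebpa and Sox2, 5 of the 10 genes, against 26% of all genes.

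Other probe sets gave part of this. The Sox9 probe set used in the lung was at 2.69, 2.95 and 2.95 in WT and at 2.94, 3.08 and 4.69 in Abcb11-/- livers, so that its difference of 0.71 rested on Abcb11-/- replicate 3. Another bright Id2 probe set differed by 0.72 and that near the array median by 0.10. Of the 4 other Foxp2 probe sets, the difference was -0.70 and -0.45 on 2 and -0.17 and 0.00 on the dimmest. The 3 calls did not hold in every fit without a mouse. Calls over all genes moved as well, from 1238 to 567, 492 and 564 without WT replicate 1, 2 and 3. They were 1323, 1509 and 717 without Abcb11-/- replicate 1, 2 and 3. All 3 member calls were lost without WT replicate 1 (limma adjusted p = 0.106 for Sox9, 0.126 for Id2 and 0.0891 for Foxp2) and without WT replicate 2 (0.141, 0.142 and 0.0893). Sox9 and Id2 were lost without WT replicate 3 (0.141 and 0.118), and Sox9 without Abcb11-/- replicate 1 (0.0634) or 3 (0.0570). None of these 3 turned direction, and without a mouse the differences ran from 0.86 to 1.44 for Sox9, from 0.54 to 0.87 for Id2 and from -0.77 to -0.55 for Foxp2.

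Cebpa, which keeps metabolic genes of the hepatocyte on, was at 9.64, 9.80 and 9.87 in WT and at 9.23, 9.48 and 8.82 in Abcb11-/- livers. Every Abcb11-/- value was below the WT values, by 0.59 on average (SE 0.17), a difference limma did not call (adjusted p = 0.0795). It was called without Abcb11-/- replicate 2 (0.0273). Gata6 was at 6.41, 6.33 and 6.02 and at 6.85, 6.41 and 6.94, touching at 6.41, with a difference of 0.48 (SE 0.17, limma adjusted p = 0.140) that was called without Abcb11-/- replicate 2 (0.0363). Foxa1 was at 7.79, 7.73 and 7.58 and at 7.61, 6.87 and 7.39 (-0.41, SE 0.18, limma adjusted p = 0.250), and Foxa2 at 8.52, 8.54 and 8.18 and at 8.27, 8.10 and 8.45 (-0.14, SE 0.14, 0.633), both overlapping. Etv5, dim in the liver, was at 4.10, 4.23 and 3.74 and at 2.77, 3.39 and 3.85 (-0.69, limma adjusted p = 0.181). Sox2 and Nkx2-1 stayed below 3.2 in all 6 livers, with differences of 0.15 (limma adjusted p = 0.320) and 0.14 (0.675).

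**Figure D5:**
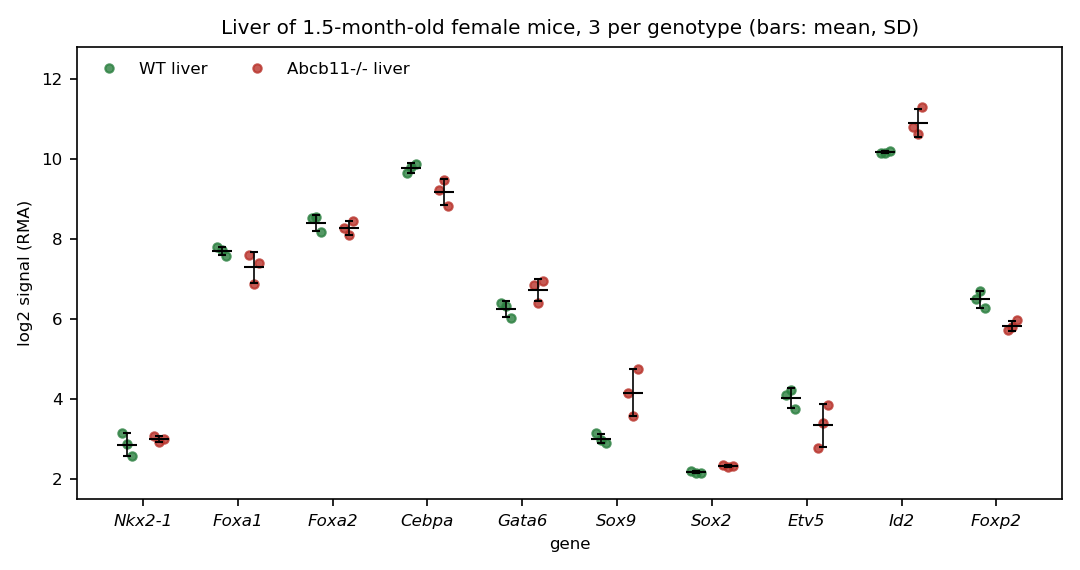
Log2 signal of the 10 genes in the livers of 3 WT (green) and 3 Abcb11-/- (red) female mice, a point per mouse, with the mean and SD of each group in black. Id2 and Sox9 were higher and Foxp2 lower in the Abcb11-/- mice without overlap, and Cebpa was lower without overlap and without a call.

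Beside these, 4 of 10 bile duct genes were called higher in Abcb11-/- livers (median difference 0.62) and none lower. Over all genes the shares were 4.33% higher and 2.91% lower. Bicc1 differed by 2.75 (SE 0.32, limma adjusted p = 0.00354), Cd24a, a surface protein, by 1.81 (SE 0.14, 0.000893), the adhesion molecule Epcam by 0.67 (SE 0.11, 0.0123) and Tff2 by 0.57 (SE 0.10, 0.0169), while the keratins Krt19 (0.35, adjusted p = 0.410) and Krt7 (0.26, 0.292) were not called. Of 8 neutrophil genes 4 were called higher (median 0.44) and of 13 hepatocyte genes none (median -0.02). The part of the bile duct and neutrophil transcripts in the Sox9 and Id2 rises was not tested. Of 18 hepatocyte transcription factors 1 was called higher, Id3, a relative of Id2 (0.88, SE 0.18, limma adjusted p = 0.0292), and 2 lower, the T-box factor Tbx3 (-1.42, SE 0.18, 0.00521) and the clock-controlled Hlf (-1.05, SE 0.14, 0.00630), with Hnf4a at 0.10 (adjusted p = 0.704). Of the 29 other factors of the lung epithelium, 3 were called higher in the liver and 3 lower. Sox4, an HMG-box factor like Sox9, rose by 2.81 (SE 0.37, limma adjusted p = 0.00558), and Hopx fell by 1.05 (SE 0.16, 0.0103).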

How the data were processed

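RNA of lung and liver was hybridised to mouse PM plate arrays, and the values the authors deposited are signals on the log2 scale, made by robust multiarray averaging (RMA). The submitters' processing notes name Partek 6.5. The values were used as deposited, each tissue on its own scale. RMA pulls arrays to a common distribution, so differences are relative to the bulk of probe sets, and without detection p-values a dim value has no lower limit of its own. Precision is limited by how few arrays there are.

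Of 45037 probe sets, 28898 had 1 gene symbol, 551 had several and 15588 had none in the platform table used here. The brightest probe set of a gene in each tissue stood for it (17097 genes, 7180 with several).

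Tests used lmFit and eBayes of limma 3.58.1 (R 4.3.3), fitted over all genes and called at a Benjamini-Hochberg adjusted p under 0.05, two-sided. The liver was compared by genotype with 3 arrays each (4 residual degrees of freedom), and the lung with terms for stage and mother (2 residual degrees of freedom). Differences by mother at a stage, without replicates, were counted at 1.5-fold. The labels do not say that liver replicates came from separate litters, so p-values measure the spread between these mice. The scripts were tested on simulated data.

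All 10 members are named. From each list, members past the test or 1.5-fold apart were counted and up to 4 of the widest were named. Any other gene named was chosen after its values were seen. The members and lists were chosen with earlier results of these data known. The lists were other lung epithelial transcription factors, distal tip signals, type II, type I and airway cell genes, hepatocyte transcription factors, and markers of epithelium, cartilage, heart, skeletal and smooth muscle, hepatocytes, bile duct, erythroid cells, neutrophils, macrophages, endothelium, fibroblasts, thyroid, squamous epithelium, nervous system and cell cycle. Alternatives were to average the probe sets of a gene, to drop genes under a mean log2 value of 6, quantile normalization, median centring, a trended and robust prior, a 2-fold threshold, a block for the replicate number, fits without an array or without the E17.5 stage, and the methods' t-test. Promoters came from RefSeq, build GRCm38.p6.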

Additional observations from a re-analysis of the deposited data

Results flagged for a closer look

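For 2 of the 10 genes the difference by mother had opposite signs at different stages and moved by 1 log2 unit or more. None of these changes was tested, since each stage has 1 array per mother. Sox9 went from -0.21 at E17.5 to 0.82 at N0, a change of 1.04. Foxp2 went from -0.50 at E17.5 and -0.47 at E18.5 to 0.59 at N0, changes of 1.09 and 1.06. On both genes the N0 array of the WT mother was the lowest of the 6.

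Medians of 5 marker lists also changed sign by 1 log2 unit or more, untested as well. Turning upward like Sox9 and Foxp2, cell cycle genes went from -0.63 at E17.5 to 0.41 at N0, a change of 1.04. Heart muscle genes went from -0.79 to 0.59 (1.38) and smooth muscle genes from -1.22 to 0.25 (1.47). Turning downward, skeletal muscle genes went from 4.27 at E17.5 to -0.28 at E18.5 (-4.54) and -0.34 at N0 (-4.61). Neutrophil genes went from 1.10 at E17.5 and 0.33 at E18.5 to -0.68 at N0 (-1.77 and -1.0).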

How the results depend on the processing

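Among the stage and liver comparisons of the members, the called directions held under every alternative run, and the calls themselves did not. From E17.5 to N0, 1 gene was called lower as reported, 4 among genes with a mean of at least 6 (log2), 3 with a trended and robust prior, and 0 to 3 when an array was left out. Calls among all genes moved too, to 1446 with that filter on the mean, which left about 7221 genes, and to 1783 with that prior. As reported they were 1008 of 17097. In the liver, 2 higher and 1 lower became 0 and 0 with the mean of all probe sets and with the methods' t-test after adjustment. Among genes with a mean of at least 6 (log2), which drops Sox9, 1 was called higher. A trended and robust prior called 2 lower and so did the methods' t-test unadjusted. Leaving out a mouse gave 0 to 3 higher and 0 to 2 lower. The causes were not tested. Same-numbered liver replicates deviated with correlations of -0.04, -0.04 and -0.14. They thus shared no array-wide deviation, which cannot show whether the numbers pair the mice. With the replicate number as a block 0 were called higher and 0 lower (671 of all genes against 1238). By mother, a 2-fold threshold left 0 higher at E17.5 and 0 higher and 0 lower at N0. With the mean of all probe sets 1 was higher at N0 (Sox9), and among genes with a mean of at least 6 (log2), which drops Nkx2-1, 0 were lower.

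Reversed signs were confined, among the tested differences, to values that no setting called. Nkx2-1 between E18.5 and E17.5, reported as 0.00, was 0.02 with quantile normalization, 0.03 with median centring and -0.27 to 0.26 when an array was left out. Without the E17.5 arrays the Foxp2 difference by mother was 0.06. Leaving out an array gave by mother -0.34 to 0.05 for Nkx2-1, -0.25 to 0.07 for Foxa2, -0.11 to 0.41 for Sox9 and -0.48 to 0.06 for Foxp2. Between E18.5 and E17.5 it gave -0.19 to 0.01 for Foxa1, -0.52 to 0.04 for Foxa2, -0.60 to 0.02 for Sox9 and -0.64 to 0.01 for Sox2. Between N0 and E18.5 it gave -0.42 to 0.22 for Nkx2-1, -0.35 to 0.08 for Cebpa, -0.07 to 0.04 for Gata6, -0.23 to 0.06 for Id2 and -1.04 to 0.04 for Foxp2. Between N0 and E17.5 it gave -0.42 to 0.22 for Nkx2-1 and -0.27 to 0.28 for Foxa2, and in the liver -0.01 to 0.28 for Nkx2-1.

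Over all genes, calls from E17.5 to N0 ran from 26 without the N0 array of the WT mother to 1783 with a trended prior (1008 as reported), from E17.5 to E18.5 from 0 to 307 (10 as reported), and in the liver from 49 with the adjusted t-test to 3129 with the unadjusted test.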

Other observations

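Markers of further cell types were measured on the same lung arrays. Of 5 thyroid genes, a tissue that also makes Nkx2-1, 1 was at least 1.5-fold apart at E17.5 and none at E18.5 or N0, and with a WT mother at E17.5 their levels lay between 2.82 and 3.16. At E17.5, 5 of 9 erythroid genes were higher with an Abcb11-/- mother (median difference 1.13), 5 of 7 smooth muscle genes were lower (-1.22), 3 of 8 squamous epithelium genes were lower (-0.14), and none of 10 endothelial (-0.27) and 7 nervous system genes (0.05) was 1.5-fold apart. At E18.5, 4 of the squamous epithelium genes were higher and 2 lower (median 0.23). At N0, 2 of 9 fibroblast genes were higher (0.30) and 1 of the endothelial genes was lower (-0.11).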
